A study of Mus musculus with 16 samples.

Results

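The 4 Hox gene clusters of the mouse were examined for acetylation of histone H3 at lysine 27 (H3K27Ac), a mark of active promoters and enhancers, in WT livers, inflamed Mdr2-/- livers and hepatocellular carcinoma (HCC) nodules. The clusters hold 38 genes considered here, from Hoxa2 to Hoxa13, Hoxb1 to Hoxb13, Hoxc4 to Hoxc13 and Hoxd1 to Hoxd13. Members were defined as all peaks that touch 1 of 4 windows of build mm9. These were set by position and not by a signal cut-off, but with earlier results of these data known. The windows were Hoxa (chr6:52095000-52225000), Hoxb (chr11:96045000-96240000), Hoxc (chr15:102735000-102880000) and Hoxd (chr2:74495000-74615000). They held 181 of the 500869 peaks of the 15 animals, with 66 at Hoxa, 109 at Hoxb, 5 at Hoxc and 1 at Hoxd. Merging overlapping peaks of all animals gave 15 regions in the windows, out of 56941 in the genome, with 6 at Hoxa, 6 at Hoxb, 2 at Hoxc and 1 at Hoxd.

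Each group had 5 animals, and every animal gave 1 peak list. WT livers came from FVB.129P2 mice by their labels, with an intact Mdr2 gene, aged 14 to 19 months, whereas the study's methods name the WT strain FVB/NJ. Inflamed livers came from Mdr2-KO mice of strain FVB.129P2-Abcb4tm1Bor/J at 7 to 8 months. These mice lack Mdr2 (Abcb4), a phospholipid exporter of the bile canaliculus, in the whole body, and their livers become chronically inflamed and form tumours. HCC nodules came from mice of the same knockout strain at 14 to 19 months. All 15 animals, WT included, had been injected with clodronate liposomes 48 hours earlier to deplete liver macrophages, so that no group holds an untreated liver. Inflamed animals were younger than those of both other groups by these labels, so that age and the inflamed stage cannot be told apart. Tissue was bulk, and fewer acetylated cells of a type and less acetylation per cell cannot be told apart.

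Hox genes encode homeodomain transcription factors that set the position of cells along the body axis of the embryo. Within a cluster, genes lie in the order in which they are used along the body, from group 1 at the anterior end to group 13 at the posterior end. Genes of the same group in different clusters are paralogues. Anterior groups answer to retinoic acid in the embryo, whereas posterior groups act in the trunk, tail, limbs and genital tract. Silent Hox clusters are typically held under Polycomb marks, and H3K27Ac cannot lie on the same lysine as the Polycomb mark H3K27me3.

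Paralogues of group 4 are shown first, because this is the only group whose RefSeq promoter sequence was at hand for 3 clusters, and these clusters differed widely in acetylation. The 250 bases before the start of each gene are given 5′ to 3′ from RefSeq (GRCm38.p6). Capitals mark TGACCT, the reverse complement of AGGTCA, which is the half-site bound by retinoic acid receptors and related nuclear receptors. In GRCm38.p6, Hoxb4 lies on the + strand at chr11:96318017-96318266, Hoxc4 on the + strand at chr15:103034145-103034394 and Hoxd4 on the + strand at chr2:74721728-74721977. These positions cannot be set against the mm9 positions of the peaks.
Hoxb4: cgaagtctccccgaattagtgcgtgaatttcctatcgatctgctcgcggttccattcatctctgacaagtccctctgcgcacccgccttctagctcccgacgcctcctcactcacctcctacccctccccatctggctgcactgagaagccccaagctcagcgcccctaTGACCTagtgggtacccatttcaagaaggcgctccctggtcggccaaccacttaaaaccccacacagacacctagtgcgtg
Hoxc4: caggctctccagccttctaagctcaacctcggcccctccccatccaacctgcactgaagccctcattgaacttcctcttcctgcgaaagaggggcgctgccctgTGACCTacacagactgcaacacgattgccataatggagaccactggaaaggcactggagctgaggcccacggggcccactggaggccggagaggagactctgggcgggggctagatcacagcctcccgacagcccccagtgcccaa
Hoxd4: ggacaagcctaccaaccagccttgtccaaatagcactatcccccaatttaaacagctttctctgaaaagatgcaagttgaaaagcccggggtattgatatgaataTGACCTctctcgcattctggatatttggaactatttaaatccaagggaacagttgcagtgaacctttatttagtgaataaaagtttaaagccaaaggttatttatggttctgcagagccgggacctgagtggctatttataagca
The motif ended 76 bases before the start in Hoxb4, 141 in Hoxc4 and 140 in Hoxd4. Hoxb4 held 14 CG dinucleotides in these bases, Hoxc4 8 and Hoxd4 3. Promoters of 22 of the 38 members were found, as 24 sequences that reach 250 bases before and 50 after the start. AGGTCA on either strand was present in 7 of the 24 against 16.3% of all 32851 promoters of the same length. Hoxa had it in 1 of 10 promoters, Hoxb in 1 of 3, Hoxc in 1 of 1 and Hoxd in 4 of 10. The motif was thus not more frequent in the promoters of the acetylated Hoxa cluster than in all promoters. CG dinucleotides reached a median of 0.626 of the number given by base composition in the 24 promoters and 0.384 in all promoters. By cluster the median was 0.722 at Hoxa (10 promoters), 0.593 at Hoxb (3), 0.333 at Hoxc (1) and 0.664 at Hoxd (10), too few at Hoxb and Hoxc to compare the clusters.

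The clusters also carry microRNA genes, and these are shown because related copies sit in acetylated and in near-empty clusters. Mature sequences from RefSeq are given 5′ to 3′ with the seed, bases 2 to 8, in capitals.
miR-10a-5p: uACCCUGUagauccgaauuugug
miR-10b-5p: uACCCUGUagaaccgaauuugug
miR-196a-5p: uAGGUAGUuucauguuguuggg
miR-196b-5p: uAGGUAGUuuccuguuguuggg
MiR-10a lies at Hoxb and miR-10b at Hoxd, and both share one seed and differ by U12A, with positions counted from 1 at the 5′ end and the base of miR-10a first. MiR-196b lies at Hoxa, whereas copies of miR-196a lie at Hoxb and Hoxc. Their seeds are identical, and miR-196a and miR-196b differ by A12C. By gene order in RefSeq, the miR-10a gene is within the long transcript of Hoxb3 and next to Hoxb4. The miR-196b gene lies between Hoxa9 and Hoxa10, and the copy of miR-196a at Hoxb lies between Hoxb13 and Hoxb9. These miR-196 genes are thus among posterior genes, whereas acetylation of Hoxa and Hoxb lay mostly on the anterior side, as described below. A location in an acetylated cluster does not mean that the microRNA gene itself lies under a peak, which was not determined.

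Peak lists held 26375 to 42736 peaks per animal, and peaks covered 128 ± 15.6 Mb of the genome in WT livers, 147 ± 9.40 Mb in inflamed livers and 144 ± 32.8 Mb in HCC nodules (SD, n = 5 each). Read numbers are not in the lists, and the depth of each library is unknown. Of 2 libraries that stood apart, WT replicate 5 shared a mean of 0.504 of the joint length under peaks with the other WT livers, against 0.665 to 0.705 for the other WT livers. HCC replicate 1 shared 0.411 with the other nodules, against 0.482 to 0.539, and each was the nearest animal of the other, at 0.630. Both had the smallest length under peaks of their group, 109 and 92.5 Mb. Lead results are given with and without both. The study itself left 2 of the 15 H3K27Ac samples out of its principal component analysis as outliers. It does not name them in its main text, so that whether they are the same libraries is unknown. The labelled tissue was not checked against marker genes, because gene positions of build mm9 were not used here. For the same reason peaks were placed by distance from the low-coordinate end of a window and by gene order, and not on single Hox genes.

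Acetylation was present in every animal at Hoxa and Hoxb and nearly absent at Hoxc and Hoxd. Hoxa and Hoxb were also the clusters in which peaks of inflamed livers covered more bp than those of the other groups. At both, the length under peaks was greater in every inflamed liver than in every WT liver and every nodule. The plot of peaks by animal shows these patterns.

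**Figure D1:**
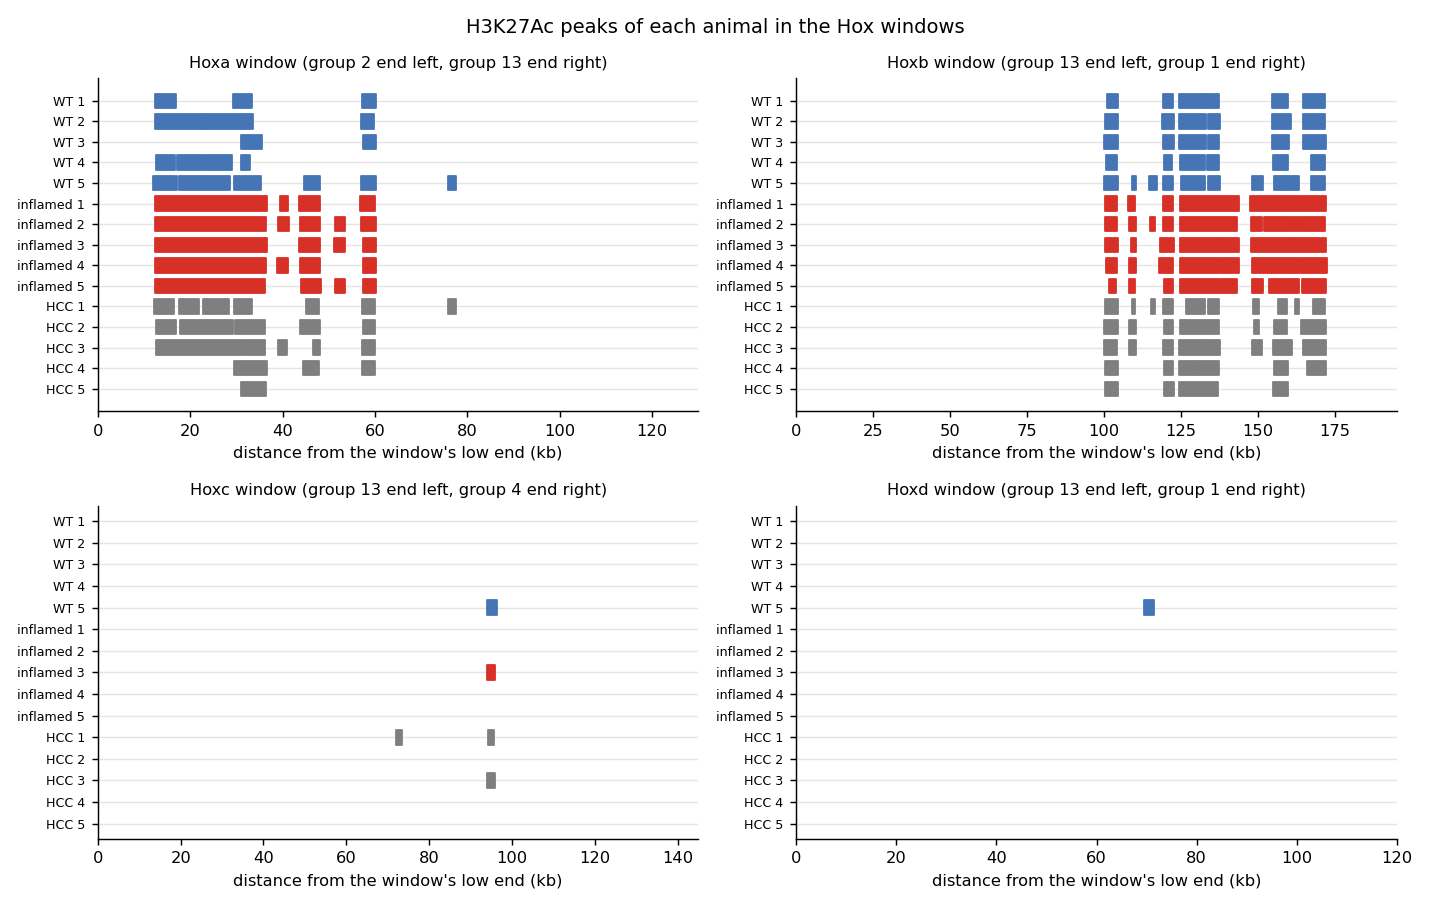
H3K27Ac peaks (bars) of each of the 15 animals along the 4 Hox windows, as distance from the low-coordinate end of the window in kb; blue, WT livers; red, inflamed livers; grey, HCC nodules. Peaks lie below 77.6 kb in the Hoxa window and between 99.9 and 172 kb in the Hoxb window, and 4 animals have a peak in the Hoxc window and 1 in the Hoxd window.

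At Hoxa, the length under peaks in the 5 WT livers was 11654, 23927, 7306, 17992 and 29969 bp. In the inflamed livers it was 33819, 36247, 33843, 33584 and 33050 bp. In the HCC nodules it was 25296, 28788, 29661, 13474 and 5524 bp. The inflamed livers were nearly alike, whereas WT livers and nodules each spanned a wide range that ended below the lowest inflamed liver. Means were 18170 ± 9122 bp in WT, 34109 ± 1237 bp in inflamed and 20549 ± 10598 bp in HCC samples (SD, n = 5 each). Inflamed livers exceeded WT livers by 15939 bp, or 1.88-fold (two-sided exact permutation test, p = 0.00794). With groups of 5 animals no smaller p can be reached. Adjusted by Benjamini-Hochberg over all 150 kb tiles of the genome with a peak and the 4 windows, this exact p was 0.0373. That was the lowest adjusted value in this contrast, and 2386 of the 11219 tiles and 4 windows together had an adjusted p up to 0.05. Nodules minus inflamed livers gave -13560 bp, or 0.602 of the inflamed length (exact permutation test, p = 0.00794, adjusted p = 0.111). The adjusted value did not pass 0.05, nor did that of any other tile in this contrast. Nodules and WT livers differed by 2379 bp, within the spread between animals (exact permutation test, p = 0.706).

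At Hoxb, WT livers had 32270, 34005, 33062, 27520 and 39468 bp under peaks. Inflamed livers had 52694, 52422, 53737, 53164 and 46655 bp. HCC nodules had 30506, 36142, 39858, 30086 and 25241 bp. Here too the groups of inflamed livers and of the other animals did not overlap, whereas WT livers and nodules covered the same range. Means were 33265 ± 4274 bp in WT, 51734 ± 2883 bp in inflamed and 32367 ± 5697 bp in HCC samples (SD, n = 5 each). The excess of inflamed over WT livers was 18469 bp, or 1.56-fold (exact permutation test, p = 0.00794, adjusted p = 0.0373). Nodules minus inflamed livers gave -19368 bp, or 0.626 of the inflamed length (exact permutation test, p = 0.00794, adjusted p = 0.111). Between nodules and WT livers the difference was -898 bp (exact permutation test, p = 0.778). Both contrasts use the same 5 inflamed livers and are not independent.

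**Figure D2:**
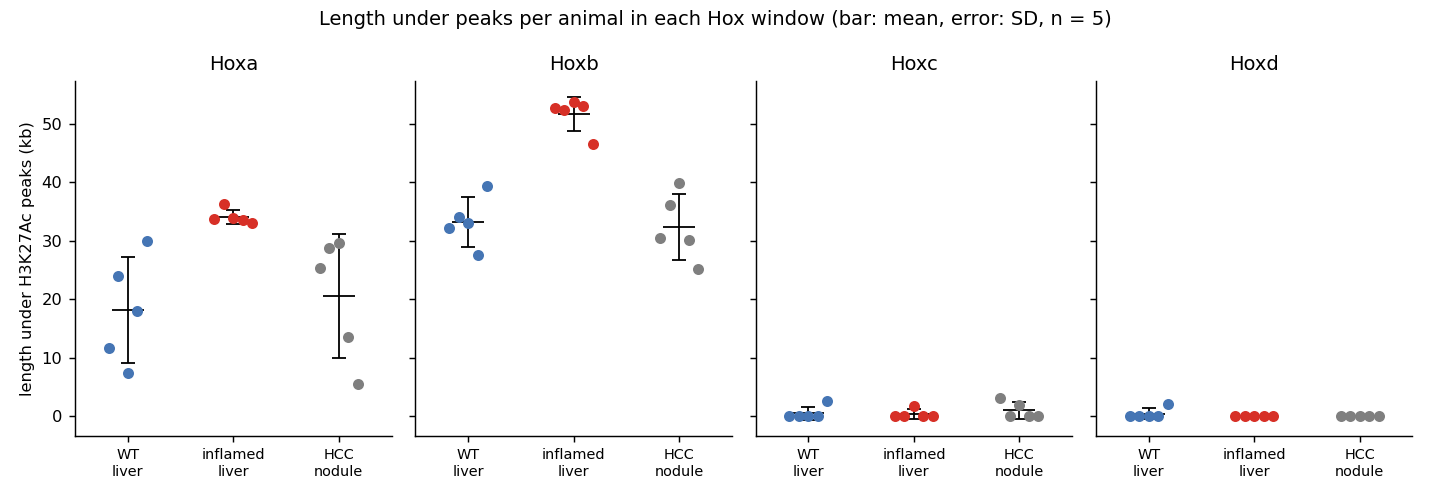
Length under H3K27Ac peaks in kb (vertical axis) in each Hox window for each animal (points) of the 3 groups, with the group mean (bar) and SD (error bar, n = 5). At Hoxa and Hoxb all 5 inflamed livers lie above all WT livers and all nodules, and at Hoxc and Hoxd most animals are at 0.

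At an unadjusted exact p up to 0.05, 2 of the 4 windows were greater in inflamed than in WT livers and 0 smaller, against 28.9% and 8.03% of 11219 tiles of 150 kb. Between nodules and inflamed livers 2 windows were smaller and 0 greater, against 12.4% and 4.25% of tiles. For nodules against WT livers no window passed, against 7.05% of tiles that were greater and 3.83% that were smaller. Of these tiles, 17.9% had every inflamed liver above every WT liver, and 5.57% had every nodule below every inflamed liver. Every inflamed liver exceeded all 10 other animals in 3.56% of tiles, as in 2 of the 4 Hox windows. Hoxa and Hoxb were also ranked by the size of the difference, among tiles that were not matched to them for coverage. A tile with little length under peaks in every animal cannot differ by much. Of the tiles, 54.3% had a peak in all 15 animals and 16.3% in at most 4, so that the ranks partly follow coverage. As a share of its window, the gain in inflamed livers was 12.3% at Hoxa and 9.47% at Hoxb, against a median of 0.363% over tiles. These exceeded 97.7% and 95.6% of tiles. Nodules against inflamed livers differed by -10.4% of the window at Hoxa and -9.93% at Hoxb, with a median of 0 over tiles. Of all tiles, 1.37% had a more negative difference than Hoxa and 1.60% than Hoxb.

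**Figure D3:**
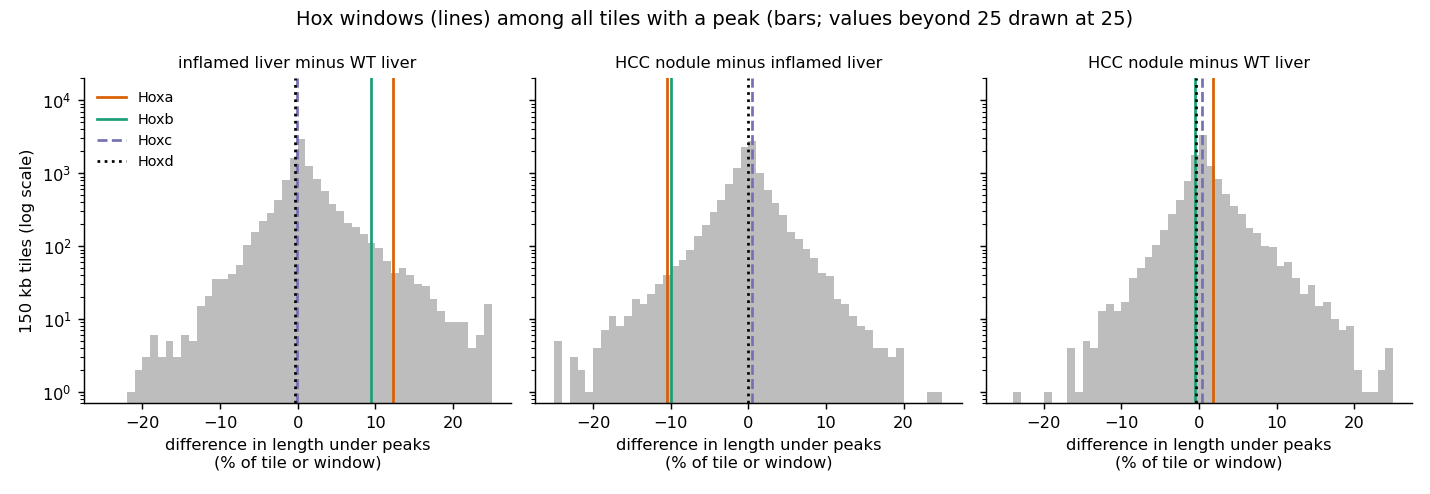
Difference in length under H3K27Ac peaks, as % of a tile or window (horizontal axis), for 11219 tiles of 150 kb (grey bars, number of tiles on a log axis) and the 4 Hox windows (lines), for the 3 contrasts. Hoxa and Hoxb lie at 12.3% and 9.47% for inflamed minus WT livers and at -10.4% and -9.93% for nodules minus inflamed livers, and Hoxc and Hoxd lie near 0 in each contrast.

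The call at Hoxa depended on 2 libraries when each value was divided by the genome under peaks in the same animal. WT replicate 5 then had 274 bp per Mb and HCC replicate 1 also 274, above the 212 to 262 of the inflamed livers. Both lists cover less of the genome than the others of their groups, 109 and 92.5 Mb. WT replicate 5 also had the greatest length at Hoxa of the WT livers, 29969 bp. HCC replicate 1, at 25296 bp, lay within the range of the other nodules. The part of list size in these values was not tested. The differences were 86.2 bp per Mb for inflamed against WT livers (exact permutation test, p = 0.0635) and -78.8 bp per Mb for nodules against inflamed livers (p = 0.111). Without both libraries they were 118 and -109 bp per Mb, and the groups did not overlap (exact permutation test, p = 0.00794 each). In bp, leaving both out changed neither call, with differences of 18889 and -14747 bp at Hoxa. Hoxb kept its calls on either scale, but per Mb the groups overlapped with both libraries included (exact permutation test, p = 0.0317 against WT livers and 0.0159 against nodules). WT replicate 5 had 361 bp per Mb and HCC replicate 1 had 330, against 314 to 386 in the inflamed livers. Without both, the groups at Hoxb did not overlap (exact permutation test, p = 0.00794 for each contrast).

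Peaks at Hoxa and Hoxb were wider in inflamed livers, not more numerous. The widest peak at Hoxa was 24175, 24057, 24238, 24117 and 23641 bp in the inflamed livers. It reached at most 10625 bp in WT livers and 18182 bp in nodules, with medians of 6723 and 7123 bp. Thus the stretch that formed 1 unbroken peak in each inflamed liver was broken up or partly missing in all other animals. Means were 24046 ± 236 bp in inflamed, 6611 ± 2532 bp in WT and 9316 ± 5648 bp in HCC samples (SD, n = 5; exact permutation test of inflamed against each, p = 0.00794). In the inflamed livers it stood at percentiles 99.7 to 99.9 of the peak widths of the same list. At Hoxb the widest peak was 16080 ± 2768 bp in inflamed livers, 8534 ± 565 bp in WT livers and 8646 ± 3006 bp in nodules (SD, n = 5). Inflamed livers differed from both (exact permutation test, p = 0.00794 against WT and 0.0159 against HCC), although the widest of the nodules, at 12853 bp, passed the lowest inflamed liver at 12786 bp. Without WT replicate 5 and HCC replicate 1 these calls remained (exact permutation test, p = 0.00794 at Hoxa, and 0.0159 and 0.0238 at Hoxb). The p-values for the widest peak are not adjusted. No genome share is given for this measure, so that the separation of the groups cannot be set against a background. Peaks numbered 4.2 ± 0.447 in inflamed and 4.2 ± 2.28 in WT livers at Hoxa, and 7.6 ± 1.34 and 6.8 ± 1.79 at Hoxb (SD, n = 5). No contrast of peak numbers passed the test at either cluster (exact permutation test, lowest p = 0.603). Widths over the whole list went the other way, with a median peak of 2791 to 3197 bp in inflamed and 2890 to 3809 bp in WT livers.

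Peaks were also ranked by the peak caller's score within the same list, where the percentile is the share of peaks scored no higher and tied peaks share the upper value. The best peak at Hoxb stood at percentile 89.6 ± 10.1 in inflamed livers, 55.2 ± 9.79 in WT livers and 63.0 ± 8.58 in nodules (SD, n = 5). Lists of inflamed livers were longer than those of WT livers, and further weak peaks raise the percentile of a peak of the same rank from the top. When lists were cut to an equal length, the 26375 peaks of highest score, the percentiles at Hoxb were 85.3 ± 13.9 in inflamed livers, 52.2 ± 9.37 in WT livers and 54.5 ± 6.06 in nodules (SD, n = 5). Every inflamed liver was above every other animal in full and in equal lists (exact permutation test, p = 0.00794 for both contrasts and both kinds of list), and without WT replicate 5 and HCC replicate 1 as well. For the best score, too, p-values are unadjusted and no genome share is given, so that this separation has no background beside it. At Hoxa the best peak stood at 74.8 ± 14.9 in inflamed livers, 43.0 ± 16.4 in WT livers and 58.3 ± 21.2 in nodules (SD, n = 5). For inflamed against WT livers the exact permutation test gave p = 0.0317 in full lists and 0.0952 in equal lists, so that no difference is called. WT replicate 5, at 70.7, was the one WT liver within the range of the inflamed livers, and without it the ranges parted, with WT livers at 29.8 to 44.7 and inflamed livers at 60.2 to 99.5. Nodules and inflamed livers overlapped there (exact permutation test, p = 0.222).

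**Figure D4:**
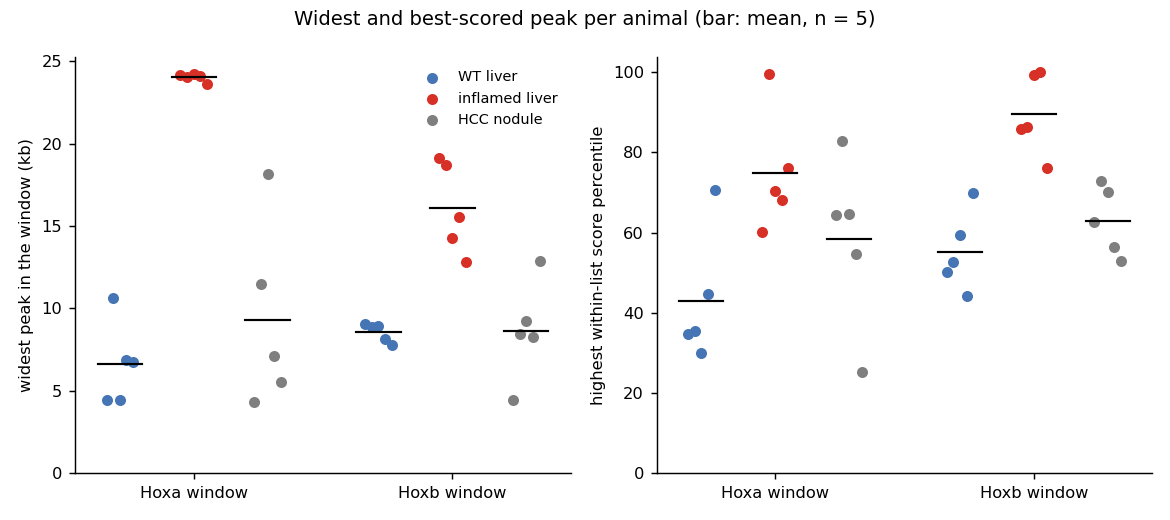
Width of the widest peak in kb (left) and percentile of the best score within the animal's list (right) for each animal (points) at Hoxa and Hoxb; the bar is the group mean, n = 5. The widest Hoxa peak is 23641 to 24238 bp in all inflamed livers, and at Hoxb the best score of each inflamed liver is above that of every WT liver and nodule.

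Acetylation lay mostly on one side of the Hoxa window and only on one side of the Hoxb window. In the Hoxa window, low coordinates hold the anterior genes from Hoxa2 and high coordinates the posterior genes to Hoxa13. With the window divided at its midpoint, all peaks of the inflamed livers lay on the low side, which held 34109 bp under peaks on average, and the high side had 0 bp in all 5. On the high side only WT replicate 5 (1629 bp) and HCC replicate 1 (1920 bp) had a peak. Hoxb runs the other way, with Hoxb13 at low and Hoxb1 at high coordinates. Its low side had 0 bp under peaks in all 15 animals, and all 109 peaks lay on the high side, between 99.9 and 172 kb from the low end. In both clusters acetylation was thus on the anterior side of the midpoint, apart from the high-side peaks of WT replicate 5 and HCC replicate 1 at Hoxa. The genes are unevenly spaced, so that the midpoint does not part them equally.

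The 6 Hoxa regions are described in order from the anterior end. Hoxa region 1 (chr6:52107009-52131684), 24676 bp wide, had a peak in all 15 animals and was wider than 98.4% of all merged regions. Length under peaks there was 8586, 21068, 4441, 17992 and 21505 bp in WT livers, 24175, 24057, 24238, 24117 and 23641 bp in inflamed livers, and 17618, 22261, 23412, 7123 and 5524 bp in nodules. The inflamed livers filled the region almost whole, and every other animal filled less of it (exact permutation test, p = 0.00794 for both contrasts; adjusted over all regions, 0.0634 and 0.177). Hoxa region 2 (chr6:52133729-52136406) had a peak in 3 inflamed livers, 1 nodule and 0 WT livers. Hoxa region 3 (chr6:52138485-52143329) had a peak in all 5 inflamed livers, in 4 nodules and only in replicate 5 of the WT livers. The inflamed livers had 4514, 4385, 4363, 4204 and 4436 bp under peaks there, WT replicate 5 had 3523 bp, and the nodules had 2898, 3877, 1466, 3542 and 0 bp. All inflamed values exceeded all others (exact permutation test, p = 0.00794 for both contrasts, adjusted 0.0634 and 0.177). Hoxa region 4 (chr6:52146168-52148605) had peaks in 3 inflamed livers and in no other animal. Next came a region shared by 13 animals, and the posterior-most of the 6 was that of WT replicate 5 and HCC replicate 1 alone.

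The 6 Hoxb regions run from the posterior to the anterior side. Hoxb region 1 (chr11:96144898-96149570) had a peak in all 15 animals and was not longer in inflamed livers. It held 4007 ± 487 bp in WT, 3588 ± 702 bp in inflamed and 4245 ± 235 bp in HCC samples (SD, n = 5). This was the one region with a longer stretch in nodules than in inflamed livers at an unadjusted p under 0.05 (exact permutation test, p = 0.0159, adjusted 0.272). Hoxb region 2 (chr11:96152758-96155385) had a peak in all 5 inflamed livers, in 3 nodules and only in replicate 5 of the WT livers, with 2066 ± 350 bp in inflamed and 234 ± 524 bp in WT livers (SD, n = 5; exact permutation test, p = 0.00794, adjusted 0.0634). Hoxb region 4 (chr11:96162885-96167686) was present in all 15 animals with 3265 ± 430, 3710 ± 737 and 3104 ± 157 bp (SD, n = 5 each), and no contrast passed the test (lowest exact p = 0.127).

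The last 2 regions of Hoxb carried most of the difference. Hoxb region 5 (chr11:96169163-96188814) held 12938, 12737, 12356, 11790 and 11694 bp in WT livers. It held 19110, 18723, 19259, 19081 and 18307 bp in inflamed livers and 9718, 12370, 13438, 12717 and 12853 bp in nodules. Every inflamed liver was thus well above every other animal, with little spread within the WT and inflamed groups. Hoxb region 6 (chr11:96192432-96217164), the widest of the 15 at 24733 bp, held 12932 ± 2368 bp in WT, 23190 ± 1254 bp in inflamed and 11306 ± 4440 bp in HCC samples (SD, n = 5 each). Here too the inflamed livers, at 21223 bp or more, did not overlap with the others, which reached at most 16833 bp. For both regions and both contrasts the exact p was 0.00794, adjusted 0.0634 against WT and 0.177 against HCC samples. The remaining region of Hoxb had a peak in just 1 animal of each group, WT replicate 5 and HCC replicate 1 among them.

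Across the 15 regions, 5 had a peak in all 15 animals, or 33.3%, against 21.3% of all 56941 regions. No Hox region had a peak in all 5 animals of one group and none of another, against 4.82% of all regions for inflamed over WT livers and 1.28% for inflamed livers over nodules. Without WT replicate 5, 2 regions had a peak in all inflamed and no WT livers, Hoxa region 3 and Hoxb region 2. No genome share is given for this looser rule, so that these 2 cannot be set against a background. In the genome the other directions gave 0.399% for WT over inflamed livers, 0.105% for nodules over inflamed livers, 0.220% for nodules over WT livers and 0.146% for WT livers over nodules. By length under peaks, 5 of the 15 were greater in inflamed than in WT livers at an unadjusted exact p up to 0.05, against 17.0% of all regions, and 0 were smaller, against 7.45%. For nodules against inflamed livers, 4 were shorter and 1 was longer, against 9.20% and 3.03% of all regions. For nodules against WT livers 0 were longer and 0 shorter, against 3.67% and 3.30%. The median difference over the 15 regions was 518 bp for inflamed against WT livers, with a median of 0 over all regions, and -709 bp for nodules against inflamed livers, with a median of 84.2 bp over all. In 56941 regions no adjusted p passed 0.05 in any contrast (exact permutation test; lowest adjusted p = 0.0634).

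Dividing the windows into bins of 1 kb, each counted as acetylated with at least 500 bp under a peak, located the difference within the long regions. At Hoxb, 18 of the 59 bins acetylated in any animal were so in all 15, and at Hoxa 2 of 40, against 15.4% of 302899 bins in the genome. Hoxb thus had a shared core of acetylation, and Hoxa hardly any. Bins in all 5 inflamed and no WT liver numbered 8, with 2 at Hoxa and 6 at Hoxb, against 3.42% in the genome. They made up 5% of the Hoxa bins and 10.2% of the Hoxb bins. Without WT replicate 5 the number was 18, for which no genome share under the same rule is given. Bins in all 5 inflamed livers and no nodule numbered 7, all at Hoxb, or 11.9% of its bins, against 0.929% in the genome. Without HCC replicate 3 the number was 11, again with no genome share under the same rule. The Hoxb counts against WT livers and against nodules both include the same run of 5 adjoining bins. Neighbouring bins under 1 peak are not independent, so that these shares do not count separate changes. No bin was acetylated in all WT livers or all nodules and in no inflamed liver, against 0.741% and 0.197% in the genome. Nor did any bin part nodules from WT livers, against 0.203% in all nodules alone and 0.185% in all WT livers alone.

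A run of 5 bins at Hoxb, chr11:96183001-96188000 in mm9, was acetylated in all 5 inflamed livers and in no WT liver and no nodule. Such bins were 0.586% of those in the genome and 8.47% of those at Hoxb. The run lies 1 kb beyond the core of Hoxb region 5, which reaches in all 15 animals up to 137 kb from the low end of the window. In inflamed livers all bins from 125 to 143 kb were acetylated, as 1 unbroken peak in replicates 1 and 2 and as 2 peaks parted by a short gap in replicates 3, 4 and 5. Other bins that were acetylated in all inflamed livers and no WT liver were 35 to 36 kb and 44 to 45 kb along Hoxa and 164 to 165 kb along Hoxb. These were acetylated in 4, 2 and 2 nodules, respectively, so that the run at 138 to 143 kb was the one stretch absent from both other groups.

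**Figure D5:**
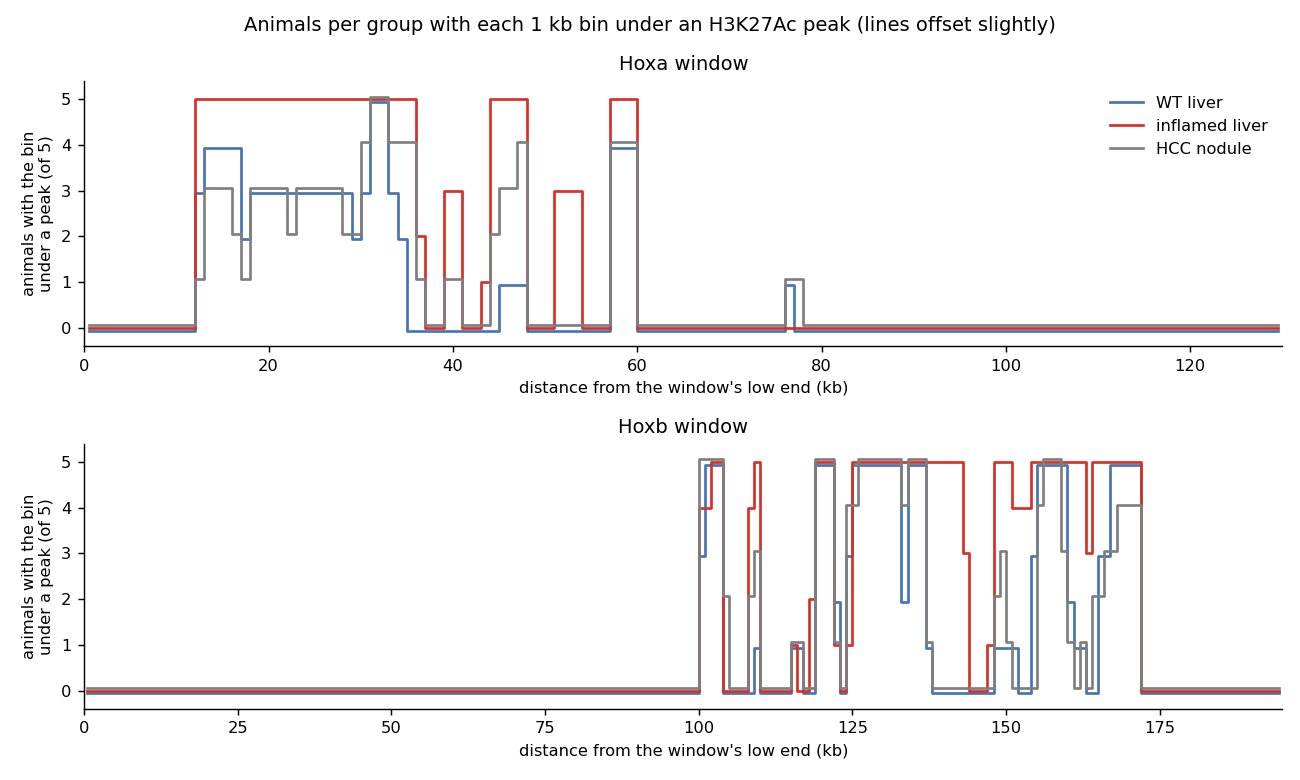
Number of animals of each group (vertical axis, of 5) in which each 1 kb bin has at least 500 bp under an H3K27Ac peak, along the Hoxa and Hoxb windows (horizontal axis, kb from the low-coordinate end); blue, WT livers; red, inflamed livers; grey, HCC nodules. At 138 to 143 kb of Hoxb the count is 5 for inflamed livers and 0 for WT livers and nodules.

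At Hoxc, 11 of 15 animals had no peak. WT replicate 5 had 2504 bp under peaks, inflamed replicate 3 had 1761 bp, HCC replicate 1 had 3153 bp and HCC replicate 3 had 1902 bp. All 4 shared Hoxc region 2 (chr15:102828858-102831361), on the Hoxc4 side of the midpoint, and HCC replicate 1 had a further peak. Both libraries that stood apart are among these 4. Peaks of inflamed replicate 3 and HCC replicate 3 were among the weakest of their lists, at percentiles 0.863 and 1.30, whereas that of WT replicate 5 stood at 40.8. No contrast passed the test (exact permutation test, lowest p = 0.444). At Hoxd, WT replicate 5 alone had a peak, of 2074 bp (chr2:74564500-74566573), at percentile 0.274 of its list. It lay on the Hoxd1 side of the midpoint. Without this animal the Hoxd window was empty in all libraries. A peak in at most 4 animals is not rare, since 16.3% of tiles with any peak had one in at most 4 animals, and 7.30% in 1. A peak below the authors' score limit is not listed, so that weak acetylation at Hoxc and Hoxd was not detectable in these lists.

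Stretches next to the windows, of the same length as each window, differed by side. Beyond the Hoxb1 end, where Skap1 is the nearest protein-coding gene in RefSeq, inflamed livers had 16144, 11239, 21526, 20029 and 10961 bp under peaks. WT livers had 3063 to 7109 bp and nodules 0 to 10300 bp, so that inflamed livers were again above all others. Before the Hoxa2 end, on the side of Skap2, all 5 inflamed livers had peaks, of 1914 to 4738 bp, against 1 WT liver (1711 bp) and 1 nodule (2963 bp). Skap1 and Skap2 encode related adaptor proteins of immune cell signalling. Beyond the posterior ends of Hoxa and Hoxc no animal had a peak, and on the posterior side of Hoxb the means were 11970 ± 1453, 10969 ± 2588 and 11460 ± 2300 bp in WT, inflamed and HCC samples (SD, n = 5 each). Next to the Hoxc4 end, on the side of Smug1, a DNA repair enzyme, all animals had peaks, with 16784 ± 3719 bp in WT, 19753 ± 1844 bp in inflamed and 9093 ± 2116 bp in HCC samples (SD, n = 5 each). All nodules there were below all other animals, unlike in the Hoxc window itself. Hoxd lay between stretches of 1720 to 3348 bp on average per group. The near-empty Hoxc window was thus next to acetylated chromatin on one side, and Hoxd on both. These stretches were described without a test. In 3.56% of 150 kb tiles every inflamed liver was above all WT livers and all nodules. No such share is given for nodules below all other animals.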

How the data were processed

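H3K27Ac ChIP-seq of 15 mice was analysed; an IgG control library of WT liver was not used here. The authors called peaks per animal and deposited 1 list each with positions and the caller's score, on a scale that is not given in the sources used here. Per the labels, the tools were Bowtie 0.12.7 and MACS 1.4 with build mm9. Chromosomes 1 to 19 and X were kept. Overlapping peaks were merged within an animal for length under peaks and over all animals for regions (1 bp overlap). Groups follow the labels. Means were compared by the exact two-sided permutation test with Benjamini-Hochberg adjustment over 150 kb tiles or over regions, and 12 window comparisons were made. A region or bin was called with all 5 animals against 0. Regions named by position had a peak in all animals, or numbers of animals 3 or more apart between groups, or peaks in at least 2 animals of 1 group alone, or were the widest of a window. Members, lists and tests were chosen with earlier results of these data known, and the tests of the widest peak and best score, their alternatives and the division per Mb without 2 libraries were added after the values were seen. Lengths under peaks and the exact test were tested on simulated data. Alternatives were other scaling, scores, window edges, overlaps and animals. Replicates are separate animals. The depth of the lists is unknown. Python 3.11.15, NumPy 2.4.6 and matplotlib 3.10.9 were used.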

Additional observations from a re-analysis of the deposited data

Results flagged for a closer look

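Of 20 groups of 5 values examined in the 4 windows, 10 had an animal far from the others. Chance gives about 1 in 20 for values that vary freely, which does not hold here: in 8 of the 10 the other 4 values were equal, and the length and the number of peaks of a window come from the same peaks. At Hoxa, inflamed replicate 2 had 36247 bp under peaks, against 33843 bp for the nearest inflamed liver, and 5 peaks against 4 in each of the others. At Hoxb, inflamed replicate 5 had 46655 bp, against 52422 bp for the nearest, which is still above every WT liver and nodule, and WT replicate 5 had 10 peaks against 6 in each of the other WT livers. At Hoxc, WT replicate 5 had 2504 bp in 1 peak and inflamed replicate 3 had 1761 bp in 1 peak, against 0 in the rest of each group. At Hoxd, WT replicate 5 had 2074 bp in 1 peak against 0. WT replicate 5, which stood apart over the whole genome, accounts for 5 of the 10, and the part of its library in these values was not tested.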

How the results depend on the processing

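Hoxa and Hoxb kept the direction and the call of inflamed against WT livers and of nodules against inflamed livers with equal lists, the top 50% of each list by score, wider windows and each animal left out, but groups that did not overlap did so at Hoxb for nodules against inflamed livers with the top 50% (exact p = 0.0159) and for both contrasts per Mb (0.0317 and 0.0159). At Hoxa, the value per Mb under peaks passed the test in neither contrast (86.2 and -78.8 bp per Mb). Peak numbers passed it in none: inflamed minus WT was 0 at Hoxa and 0.8 at Hoxb, nodules minus inflamed 0.6 and -0.2, nodules minus WT 0.6 at Hoxb. Contrasts that passed no test changed sign: nodules minus WT at Hoxa with equal lists (-3991 bp) and at Hoxb with the top 50% (7945 bp) and without WT replicate 5 and HCC replicate 1 (1118 bp); at Hoxc, inflamed minus WT with windows 10000 bp longer per side (655 bp) and without both libraries (352 bp, or 2.20 bp per Mb), and nodules minus inflamed with longer windows (-432 bp). Regions in all inflamed and no WT liver numbered 1 when a peak had to cover 50% of the region, 2 with at least 4 against at most 1 animal and 2 without both libraries; HCC against WT gave 1 with 4 against 1. Bins numbered 22 (4 against 1), 13 (top 50%) and 18 (without both) for inflamed against WT, 17 (1 higher and 16 lower in HCC) and 3 (4 against 1, top 50%) for HCC against inflamed, and 2 and 1 (4 against 1, without both) for HCC against WT. Leaving out 1 animal, inflamed minus WT ranged from 13223 to 18889 bp at Hoxa, 17033 to 20020 at Hoxb, -501 to 352 at Hoxc and -519 to 0 at Hoxd; nodules minus inflamed from -15838 to -9804, -21241 to -17586, 123 to 1011, and 0; nodules minus WT from -337 to 6135, -2771 to 883, -25.3 to 1011 and -519 to 0. The widest Hoxb peak of nodules minus WT livers, which passed no test, ranged from -940 to 1171 bp. Bins ranged from 8 to 18, 7 to 11 and 0 to 1, and regions from 0 to 2, 0 and 0. WT replicate 5 gave the 18 bins and 2 regions, HCC replicate 3 the 11 and HCC replicate 1 the 1. Genome shares are not given for counts of regions and bins under these other rules. The causes were not tested. No paired analysis was possible because the groups are different animals and the replicate numbers were given here in accession order. Unknown depth limits all values, since deeper libraries can give more and wider peaks, and a peak under the score limit is not listed.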
